A study of Mus musculus with 6 samples.

Results

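Bmp6 and Bmp2 encode the bone morphogenetic protein ligands through which liver endothelial cells are known to signal to hepatocytes, and they are 2 of the 39179 genes in the deposited expression table. They were taken by gene name, and each name matched a single row. Both were measured by RNA sequencing in sorted liver endothelial cells of male wild-type 129S6/SvEvTac mice, with 3 biological replicates per diet and 6 libraries in all. The control_iron group received a purified diet with 37 ppm iron as ferric citrate, and the high_iron group received one with 10000 ppm carbonyl iron. Both groups went on the diet at the age of 3 weeks and were sampled 4 weeks later, at 7 weeks. The gate kept cells positive for CD146 and CD31 and negative for CD64, MHC class II, lineage markers and CD45. These are whole sorted populations, so a change in the number of cells that make a transcript and a change in the RNA made per cell cannot be told apart.

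Bone morphogenetic proteins are secreted as dimers cut from longer precursors. In the liver, BMP6 and BMP2 from sinusoidal endothelial cells bind BMP receptors and the co-receptor hemojuvelin on hepatocytes, where SMAD proteins then switch on Hamp. Hamp encodes hepcidin, the hormone that lowers iron absorption and iron release by degrading the exporter ferroportin. Endothelial Bmp6 is known as the ligand that follows liver iron, and Bmp2 as a ligand needed for basal hepcidin. The transcription factor NRF2, which binds antioxidant response elements in DNA, is known to act on Bmp6 in these cells.

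In the GRCm38 (mm10) build, chromosome 13 carries Bmp6 (ENSMUSG00000039004) between 38345107 and 38500302, and chromosome 2 carries Bmp2 (ENSMUSG00000027358) between 133552159 and 133562885, both as plus-strand genes. In GENCODE M21 the merged exons of Bmp6 span 3900 bases and those of Bmp2 3555 bases, whereas the deposited gene lengths are 2403 and 3552 bases. The gene model behind the Bmp6 counts was therefore shorter than that of GENCODE M21. In GENCODE M21, 224 bases of the Bmp6 exons (5.74%) overlap Txndc5, a gene for a protein disulfide isomerase on the opposite strand. The library kit does not mark strand. The longest run of bases that the main transcripts of Bmp6 and Bmp2 share is 12, and no other gene had a transcript that matched 50% or more of either with an identity of 95% or more.

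The RefSeq promoter window of Bmp6 on GRCm38.p6, from 250 bases before the start to 50 bases after it, was searched on both strands for the core of the antioxidant response element, TGACNNNGC, because Bmp6 and a number of NRF2 target genes were both called higher in these libraries. It held 1 match, which began 108 bases before the RefSeq start and lies in the 5′ untranslated part of the first exon in GENCODE M21. Of 32851 promoter windows of the same length, 12.4% held at least 1 match, so a match by itself is common. Of the 11 genes of the NRF2 list that were higher on the high-iron diet, 7 had a window in the table and 5 of these held a match. Of the other 7 genes of the list, which were not called or not tested, all 7 had a window and 3 held a match, Nfe2l2, Maff and Mafk, so the match was not limited to genes that rose. The 5 called genes with a match are shown with Bmp6, with the matched letters in capitals and each read on the strand that carries the motif.
Bmp6 (chr13:38345598-38345626, plus strand): agactgcgagTGACCGTGCcgtgacccgc
Mafg (chr11:120633751-120633779, plus strand): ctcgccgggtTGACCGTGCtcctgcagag
Gclm (chr3:122245413-122245441, minus strand): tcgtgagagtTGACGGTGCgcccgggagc
Txnrd1 (chr10:82859104-82859132, minus strand): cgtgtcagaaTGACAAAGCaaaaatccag
Srxn1 (chr2:152105542-152105570, minus strand): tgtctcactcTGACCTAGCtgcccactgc
G6pdx (chrX:74428919-74428947, plus strand): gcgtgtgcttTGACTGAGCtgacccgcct
The match in Bmp6 has the same capital letters as that in Mafg. The same Bmp6 window held 1 match to the E-box CACGTG, found in 7.15% of windows, and none to the AP-1 motif TGANTCA (7.81%) or to the GC-rich SMAD motif GGCGCC (11.9%).

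Libraries held 12963510 to 21663543 reads in genes. CPM is a gene's reads relative to the library size as the authors scaled it, and RPKM is CPM divided by the gene length in kilobases. The sorted cells carried the transcripts of liver sinusoidal endothelium. All 14 listed endothelial genes passed the filter of at least 1 CPM in at least 3 libraries. Their summed level was 23386 to 26688 CPM in control_iron and 22071 to 23216 CPM in high_iron libraries. Every high_iron sum was thus below every control_iron one, and 4 of the 14 genes had a log2 fold change above 0. Stab1 and Stab2, scavenger receptors of sinusoidal endothelium, stood at 3678 ± 238 and 3687 ± 654 CPM (SD, n = 3) in control_iron libraries. In high_iron libraries they were at 4182 ± 285 and 3222 ± 362 CPM. Pecam1, the gene of CD31, was at 686 ± 51.5 and 606 ± 49.5 CPM in control_iron and high_iron libraries. Mcam, the gene of CD146, was low for a sorting marker, at 18.4 ± 8.46 and 8.85 ± 2.26 CPM. Limma called 0 of the 14 (3 at an unadjusted p under 0.05), edgeR 0 and DESeq2 1. Over all 12980 genes tested with limma, 1572 had an unadjusted p under 0.05.

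Bmp6 rose about 6-fold on the high-iron diet, with all high_iron libraries above all control_iron ones, while Bmp2, the more abundant transcript of the pair, was 1.28 times as high on average and did not pass the test. Bmp6 stood at 107, 165 and 110 CPM in the control_iron libraries (replicates 1 to 3) and at 613, 875 and 810 CPM in high_iron ones. The groups lay far apart: the lowest high_iron library was 3.72 times the highest control_iron library. The group means were 127 ± 32.8 and 766 ± 136 CPM (SD, n = 3). The log2 fold change, on the log2(CPM + 1) scale, was 2.59 ± 0.20 (SE), which is 6.04-fold with a 95% interval of 4.43 to 8.23 (limma, Benjamini-Hochberg adjusted p = 3.3e-04). Of the 12980 genes tested, 108 (0.832%) were called higher at an adjusted p under 0.05, 25 were called lower, and 1.02% were called in either direction.

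Ranked on log2(CPM + 1), only 5 of the tested genes had a larger rise than Bmp6. All 5, among them Hmox1 and Pir, had a lower control_iron mean. The count holds for that ranking only, because the 1 CPM added shrinks the log2 rise of weakly expressed genes most. Ccdc150 went from 3.12 to 22.8 CPM on average, a larger ratio of means than the 6.02 of Bmp6. Its log2 fold change was 2.52, below the 2.59 of Bmp6. Among the 1439 tested genes whose control_iron mean was at least that of Bmp6, itself included, no other gene had a larger log2 fold change. By its gain in CPM, 639 between the group means, it was exceeded by 11 genes. Its place among tested genes ordered by RPKM moved from 1195th, 798th and 1271st in control_iron replicates 1 to 3 to 148th, 94th and 100th in high_iron ones. Bmp6 was thus already well expressed on the control diet, and its rise placed it among the most abundant transcripts of these cells.

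Bmp2 stood at 1924, 2339 and 2266 CPM in the control_iron libraries (replicates 1 to 3) and at 3197, 2708 and 2420 CPM in high_iron ones. Every high_iron library was above every control_iron library, by a margin of only 80.5 CPM between the nearest pair, a pattern shown by 9.46% of all genes tested. The means were 2176 ± 221 and 2775 ± 393 CPM (SD, n = 3). The log2 fold change was 0.35 ± 0.18 (SE), which is 1.27-fold with a 95% interval of 0.967 to 1.67 (limma, adjusted p = 0.46). That interval includes no change and ends below the interval of Bmp6. Bmp2 was already among the most abundant transcripts on the control diet, where 37 tested genes, itself included, had a mean CPM at least as high, and none of those had a larger log2 fold change.

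**Figure D1:**
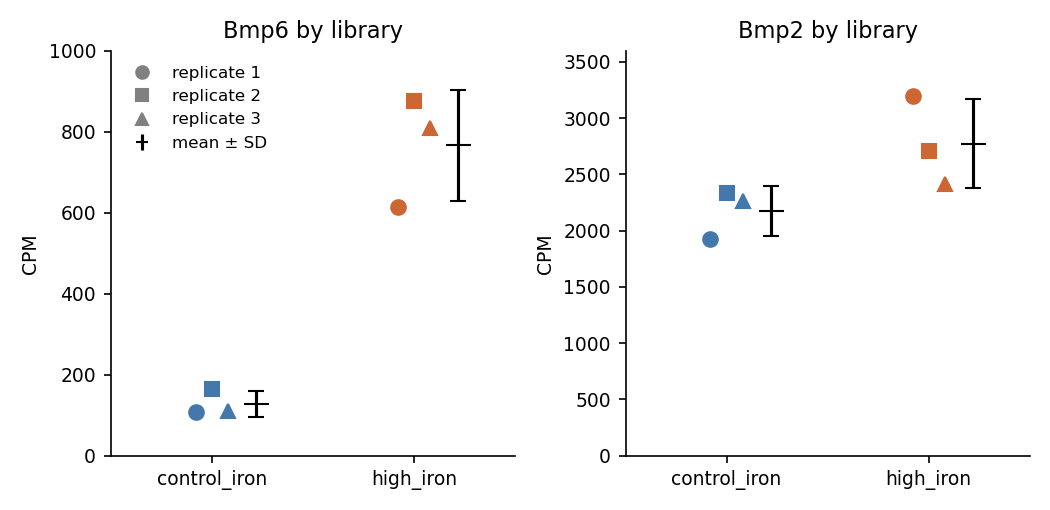
Levels of Bmp6 (left) and Bmp2 (right) in CPM on linear axes that start at 0, for control_iron (blue) and high_iron (orange) libraries. Symbols mark the replicates and bars the mean ± SD of 3 libraries; the Bmp6 groups lie far apart (127 against 766 CPM on average), and the Bmp2 groups nearly touch.

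The spread between libraries was much larger than counting error. Bmp6 was counted with 1931 to 3554 reads per control_iron library and 10541 to 14842 reads per high_iron library, so that counting error was at most 2.28% of a value. The SD between libraries was 25.7% of the mean in the control_iron group and 17.8% in the high_iron group. Bmp2 was counted with 31474 to 62288 reads, with a counting error of at most 0.564% and an SD of 10.2% and 14.2% of the mean in the respective groups. The libraries were ordered differently by the ligands within the high_iron group, where replicate 1 had the lowest Bmp6 and the highest Bmp2 of the group.

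Per length, Bmp2 exceeded Bmp6 in all 6 libraries, and the gap narrowed on the high-iron diet. The Bmp2 to Bmp6 ratio of RPKM was 12.2, 9.59 and 13.9 in control_iron libraries, and 3.53, 2.09 and 2.02 in high_iron ones. No high_iron library reached the lowest control_iron ratio. The mean ratio went from 11.9 ± 2.19 to 2.55 ± 0.850 (SD, n = 3). The log2 ratio of Bmp6 to Bmp2 was higher by 2.26 on the high-iron diet, a 4.78-fold shift, with a pooled SD of 0.37 (two-sided exact permutation test, p = 0.1, also 0.1 adjusted over 2 tests). With 3 libraries against 3, 0.1 is the smallest p that this test can give. With the GENCODE M21 lengths in place of the deposited ones, the mean ratios were 19.3 ± 3.55 and 4.13 ± 1.38. The absolute ratio thus depends on the length used, while the shift between diets does not. The reads were counted on the authors' gene model, shorter for Bmp6, so the GENCODE M21 ratios can overstate Bmp2 over Bmp6.

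Both ligands added together came to 586, 727 and 684 RPKM in control_iron libraries 1 to 3 and to 1155, 1126 and 1018 RPKM in high_iron ones. The summed level was higher in all high_iron libraries, with means of 666 ± 72.2 and 1100 ± 72.1 RPKM (SD, n = 3), a 1.65-fold difference of means (exact permutation test of the log2 sum, two-sided, p = 0.1, the smallest possible). Bmp6 made up 7.58%, 9.44% and 6.69% of the sum in control_iron libraries and 22.1%, 32.3% and 33.1% in high_iron libraries. With GENCODE M21 lengths its mean share was 5.03% ± 0.922 and 20.3% ± 4.74. Bmp6 accounted for 61.2% of the gain with the deposited lengths and for 49.3% with those of GENCODE M21. The remainder belongs to Bmp2, whose own difference did not pass the test. The reads were counted on the authors' gene model, shorter for Bmp6, so the GENCODE M21 shares can understate Bmp6.

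**Figure D2:**
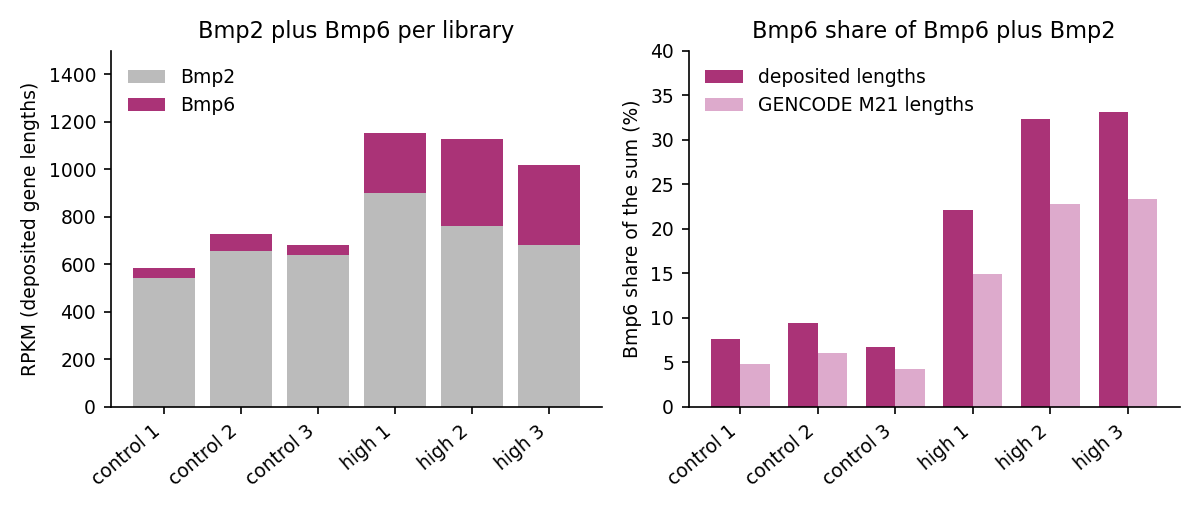
Left, RPKM of Bmp2 (grey) and Bmp6 (purple) stacked for each library, with the deposited gene lengths. Right, the share of Bmp6 in that sum in percent, with deposited lengths (dark) and GENCODE M21 lengths (light); every high_iron share (22.1% or more with deposited lengths) exceeds every control_iron share (9.44% or less).

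Among the BMP and GDF ligands, Bmp2 and Bmp6 stood alone in abundance. Of 21 listed ligand genes 7 were tested, 12 were under 1 CPM in every library, and Bmp6 was the only one called. The median log2 fold change was 0.22 for those 7 and -0.003 for all genes tested. Bmp2 and Bmp6 together held 98.1% to 99.1% of the summed RPKM of the listed ligands in control_iron libraries and 98.9% to 99.7% in high_iron libraries. Bmp3, Gdf1 and Mstn were listed at 0 in all libraries, where 3 reads, the limit a count of 0 allows, correspond to at most 0.231 CPM in the shallowest library.

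Gdf2, which encodes BMP9, a ligand known from hepatic stellate cells, came next after Bmp6 per length on average. It was at 3.27, 31.6 and 16.7 CPM in the control_iron libraries (replicates 1 to 3) and at 4.57, 28.1 and 23.1 CPM in high_iron ones, with overlapping groups (adjusted p = 0.92). Bmp5, a close relative of Bmp6 in sequence, was low, at 1.12 ± 0.834 and 2.95 ± 0.953 CPM (SD, n = 3), with all high_iron libraries above the control_iron ones by a very small margin (adjusted p = 0.29). That pattern was shown by 9.46% of all genes tested. Bmp4 was at 10.1 CPM in control_iron replicate 1 and at most 2.46 CPM in the other libraries (adjusted p = 0.76). Gdf9, better known from the oocyte, was at 1.52 ± 0.779 and 1.22 ± 0.365 CPM (adjusted p = 0.87). Bmp2 exceeded Bmp6 and Bmp6 exceeded Gdf2 in each of the 6 libraries, whereas per length the range of Bmp4 overlapped those of Gdf2, Gdf9 and Bmp5.

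**Figure D3:**
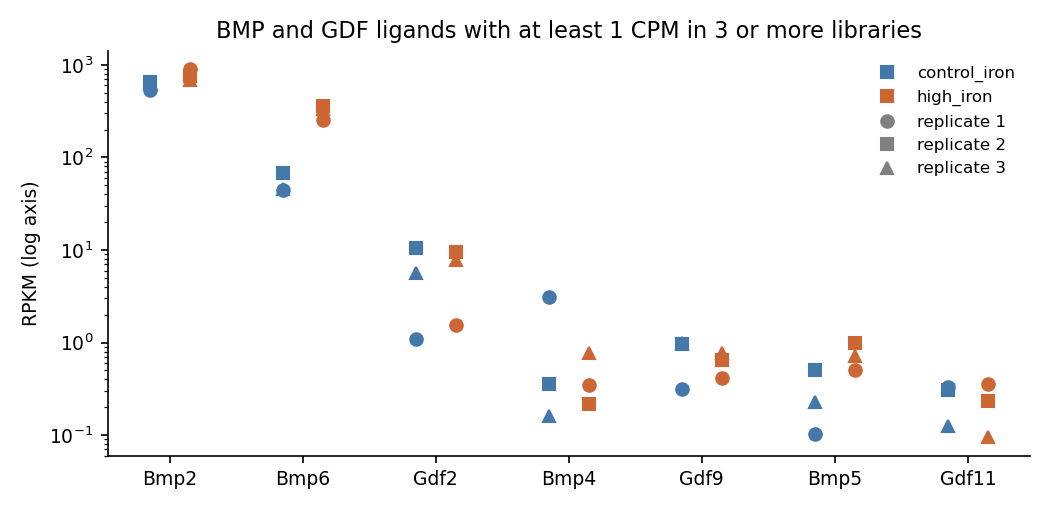
RPKM on a log axis of the 7 tested BMP and GDF ligand genes, 1 point per library, with control_iron in blue, high_iron in orange and symbols for replicates. Bmp2 and Bmp6 lie above the other ligands in every library, and Bmp6 is the gene whose groups are widely separated.

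No gene for an antagonist of BMP ligands passed limma's test. Of 23 listed genes 9 were tested, and 2 of the 9 had a log2 fold change above 0. Limma called 0 (4 at an unadjusted p under 0.05, against 1572 of all 12980 genes tested). EdgeR called 0 and DESeq2 2, both lower, with 424 DESeq2 calls over all genes. The classic antagonist genes Nog, Chrd and Grem1 were under 1 CPM in every library. Crim1, which encodes a membrane protein that binds BMP ligands and slows their release, was the most abundant, at 276 ± 45.6 and 177 ± 11.6 CPM (SD, n = 3) with no overlap between groups (log2 fold change -0.62 ± 0.15 SE, limma adjusted p = 0.10, DESeq2 adjusted p = 0.012). The share of all genes with every high_iron library below every control_iron one was not counted. Twsg1, whose product binds BMP ligands together with chordin, was at 20.6 ± 3.36 and 28.8 ± 3.91 CPM (adjusted p = 0.36). Fbn1, named after its values were seen, had the largest fall of the 9. It was at 13.4 ± 5.72 and 5.51 ± 0.575 CPM (log2 fold change -1.08 ± 0.29 SE, limma adjusted p = 0.14).

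Of 8 genes for proteases that cut BMP precursors or their antagonists 5 were tested and 1 rose, against 108 (0.832%) of all 12980 genes tested. Bmp1, which despite its name encodes a metalloprotease that cleaves chordin and procollagens, rose from 1.46 ± 0.455 to 7.19 ± 2.68 CPM (SD, n = 3; limma adjusted p = 0.037). That call was lost without control_iron replicate 2 or 3 and without high_iron replicate 2 or 3, with an adjusted p of up to 0.20. Furin, chosen after its values were seen because it encodes the convertase that cuts BMP precursors, was at 123 ± 11.0 and 157 ± 49.9 CPM (adjusted p = 0.62).

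Receptors and SMADs of the pathway, which the endothelial cells also carry, showed no call among 16 tested of 19 listed genes. At an unadjusted p under 0.05 there were 2, and edgeR and DESeq2 each called 0. Eng, the endothelial co-receptor endoglin, was at 3185 ± 80.2 and 3068 ± 245 CPM (SD, n = 3), and Smad6, an inhibitory SMAD, at 372 ± 60.2 and 312 ± 31.3 CPM. Of 14 listed BMP-SMAD target genes 10 were tested and 1 rose, Id2, a helix-loop-helix inhibitor, from 270 ± 40.9 to 573 ± 54.6 CPM (limma adjusted p = 0.011, and 0.10 without high_iron replicate 3). At an unadjusted p under 0.05 there were 5 of the 10. Over all 12980 genes tested, 1572 had an unadjusted p under 0.05 and 108 (0.832%) were called higher. Id3 and Id4, relatives of Id2 named after their values were seen, did not pass and lay in opposite directions with no overlap between groups. In 9.46% of all genes tested every high_iron library was above every control_iron one, as for Id4 and Atoh8. The share for the direction of Id3 was not counted. Id3, the most abundant of the list, was at 1906 ± 327 and 1437 ± 102 CPM (log2 fold change -0.40 ± 0.17 SE, adjusted p = 0.40), and Id4 at 164 ± 59.0 and 332 ± 60.6 CPM (1.07 ± 0.27, adjusted p = 0.12). Id1 had a log2 fold change of -0.57 ± 0.40 (SE) and Smad7 of 0.19 ± 0.17, while Atoh8 had 0.87 ± 0.25 with no overlap between groups (adjusted p = 0.59, 0.68 and 0.17). Hamp was at 7.21 ± 5.34 and 19.6 ± 7.49 CPM (adjusted p = 0.32), beside a hepatocyte marker sum of 271 to 1196 CPM in control_iron and 649 to 1209 CPM in high_iron libraries, and the part of hepatocyte RNA in that value was not tested.

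The genes whose 6 library values were most like those of Bmp6 were Pir, Ccdc150, Akr1b8 and Srxn1. Likeness was measured as the root-mean-square difference between log2(CPM + 1) values centred on each gene's mean over the 6 libraries, among 8401 genes with a mean of at least 10 CPM, and it was 0.09, 0.13, 0.16 and 0.23 for these genes. Pir, which encodes the iron-binding nuclear protein pirin, was at 1.66, 3.11 and 2.11 CPM in the control_iron libraries (replicates 1 to 3) and at 15.8, 23.9 and 19.2 CPM in high_iron ones. Its libraries fell in the same order as those of Bmp6 within the high_iron group, lowest in replicate 1 and highest in replicate 2. Akr1b8, an aldo-keto reductase, went from 199 to 1152 CPM and Srxn1, sulfiredoxin, from 18.5 to 86.3 CPM on average. Ccdc150, a gene for a coiled-coil protein, went from 3.12 to 22.8 CPM. All 4 were called higher (adjusted p between 3.3e-04 and 0.0010). Bmp6 and these genes were picked out by the difference between the diets as well as by the spread within groups, so the likeness is a description. The 1 CPM added before the log shrinks the changes of Pir and Ccdc150, which were low in control_iron libraries. Their nearness to Bmp6 depends in part on that addition.

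The genes most like Bmp2 were Acer3, P2rx7, Ttc8 and Slc38a7, with root-mean-square differences of 0.07, 0.08, 0.09 and 0.10. Acer3, an alkaline ceramidase, was at 181, 233 and 228 CPM in the control_iron libraries (replicates 1 to 3) and at 281, 258 and 221 CPM in high_iron ones. P2rx7, an ATP-gated channel, was at 37.6 and 48.9 CPM on average, Ttc8, a ciliary gene, at 10.4 and 12.7 CPM, and Slc38a7, a lysosomal amino acid transporter, at 60.7 and 73.7 CPM. None of the 4 passed the test (adjusted p between 0.38 and 0.60). The measure includes the difference between diets, so the size of that difference in the nearest genes is set by the choice.

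**Figure D4:**
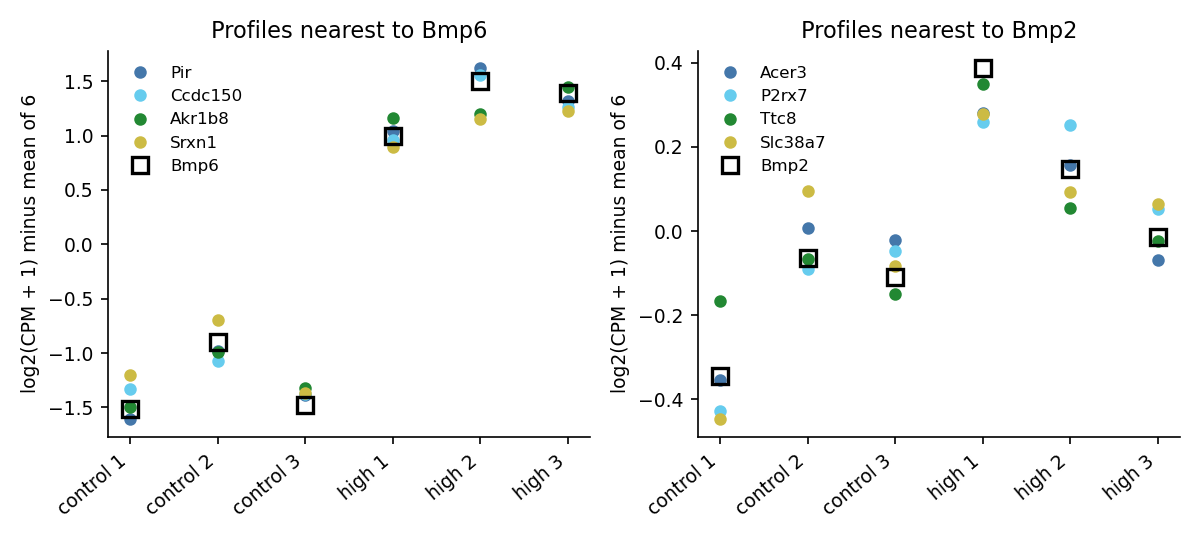
Log2(CPM + 1) minus the gene's mean over the 6 libraries, by library, for Bmp6 (left) and Bmp2 (right) as open squares and for the 4 genes nearest to each as filled circles. The Bmp6 panel spans about 3 log2 units, with a step between diets; the Bmp2 panel spans less than 1.

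Many but not all genes of the NRF2 list were called higher, as Bmp6 was. Of 18 listed genes, which were chosen with earlier results of these data known, 16 were tested and 11 were higher (8 without high_iron replicate 3). Over all 12980 genes tested, 108 (0.832%) were called higher. The median log2 fold change of the 16 was 1.59 against -0.003 over all genes. Hmox1, heme oxygenase, had a log2 fold change of 2.97, Nqo1, a quinone reductase, of 2.76, and Slc40a1, ferroportin, of 1.79. The other called genes shown with an element above, Gclm, Txnrd1, Srxn1 and G6pdx, had log2 fold changes of 2.06, 2.22, 2.18 and 1.35, with G6pdx lost without high_iron replicate 3 (adjusted p = 0.077). Gclc, Gsr and Ftl1 were also called, Ftl1 with an adjusted p of 0.051 without high_iron replicate 3. Mafg, a small MAF partner of NRF2, rose from 157 ± 6.40 to 239 ± 6.58 CPM (SD, n = 3; limma adjusted p = 0.045), which no longer passed after any 1 library was removed (adjusted p of 0.055 to 0.26). The transcript of NRF2 itself, Nfe2l2, was at 228 ± 7.84 and 257 ± 13.4 CPM (adjusted p = 0.58). Keap1, the gene of its repressor, and Bach1, of the same list, had log2 fold changes of 0.56 ± 0.20 and 0.01 ± 0.18 (SE, limma adjusted p = 0.32 and 0.99).

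None of the tested genes near Bmp6 was called. Of those within 250 kb of Bmp6, 5 were tested: Dsp, Snrnp48, Txndc5, Bloc1s5 and Eef1e1. Their log2 fold changes lay between -0.29 and 0.47, 0 had an unadjusted p under 0.05, and limma, edgeR and DESeq2 each called 0. Txndc5, the gene that overlaps Bmp6 in GENCODE M21, was at 206 ± 42.1 and 184 ± 34.2 CPM (SD, n = 3; adjusted p = 0.74). No gene within 250 kb of Bmp2 reached the filter, and the 5 that are in the table were listed at 0 in every library.

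The libraries also held marker transcripts of macrophages, lymphocytes, stellate cells and hepatocytes. Of 17 Kupffer cell and macrophage genes 16 were tested, their log2 fold changes were all above 0 (median 1.53), and 3 were called, Clec4f, Csf1r and Marco (0 without high_iron replicate 3, 1 without control_iron replicate 3 or high_iron replicate 1 or 2, and 6 without control_iron replicate 2). At an unadjusted p under 0.05 there were 15 of the 16. Over all 12980 genes tested, 1572 had an unadjusted p under 0.05 and 108 (0.832%) were called higher. In 12 of the 16 every high_iron library was above every control_iron one, against 9.46% of all genes tested. No listed Kupffer gene was at 0 in any library. Their summed level was 89.1, 234 and 118 CPM in control_iron libraries 1 to 3 and 566, 300 and 416 CPM in high_iron ones. Within the high_iron group the sum was highest in replicate 1, where Bmp6 was lowest, and lowest in replicate 2, where Bmp6 was highest. Of the libraries from different diets, high_iron replicate 2 and control_iron replicate 2 were closest in this sum. They differed 1.28-fold in it and 5.30-fold in Bmp6. That pair was picked for its closeness, and each side is a single library. The closest libraries differed 2.19-fold in the MHC class II sum and 1.73-fold in the lymphocyte sum. The part of macrophage RNA in the Bmp6 difference was not tested.

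Of the MHC class II genes 3 of 4 tested were called higher, H2-Aa, H2-Ab1 and Cd74 (0 when replicate 3 of either diet was left out, and 1 when control_iron replicate 2 or high_iron replicate 1 was), with summed levels of 42.7 to 80.8 and 177 to 560 CPM. The 10 CD45 and lymphocyte genes summed to 3.99 to 8.88 CPM in control_iron and 15.4 to 24.8 CPM in high_iron libraries. Of these 4 were tested and Ighm was called, which no longer passed after any 1 library was removed (adjusted p up to 0.24). All 4 tested MHC class II genes and all 4 tested lymphocyte genes had an unadjusted p under 0.05. In each of them every high_iron library was above every control_iron one, against 9.46% of all genes tested. Limma called 108 (0.832%) of all 12980 genes tested higher.

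Stellate cell genes differed several-fold between replicates of a diet. None of 13 tested of 15 listed passed limma, 0 had an unadjusted p under 0.05, and edgeR and DESeq2 each called 0. Their summed level was 158, 1161 and 594 CPM in control_iron libraries 1 to 3 and 250, 1092 and 663 CPM in high_iron ones. Rgs5 and Dcn, genes of pericytes and fibroblasts, were the most abundant, at 367 ± 283 and 136 ± 122 CPM (SD, n = 3) in control_iron libraries. Within each group the order of the stellate sum was the order of Bmp6, lowest in replicate 1 and highest in replicate 2, and Gdf2 and the hepatocyte sum had that order too. The ratio of group means, high_iron over control_iron, was 1.05 for the stellate sum and 6.02 for Bmp6. The part of stellate RNA in Bmp6 was not tested.

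The 13 hepatocyte genes, among them Alb and Apoa2, were all tested. Their log2 fold changes were above 0 with a median of 0.57, against -0.003 over all genes tested. Limma called 0 of the 13 (1 without control_iron replicate 2), edgeR 0 and DESeq2 2. At an unadjusted p under 0.05 there were 3, against 1572 of all 12980 genes tested. Of the 5 bile duct genes only Spp1 was tested (adjusted p = 0.55), and Sox9 was under 1 CPM on average in both groups. The part of macrophage, lymphocyte, stellate or hepatocyte RNA in the levels of Bmp6 and Bmp2 was not tested beyond these values.

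**Figure D5:**
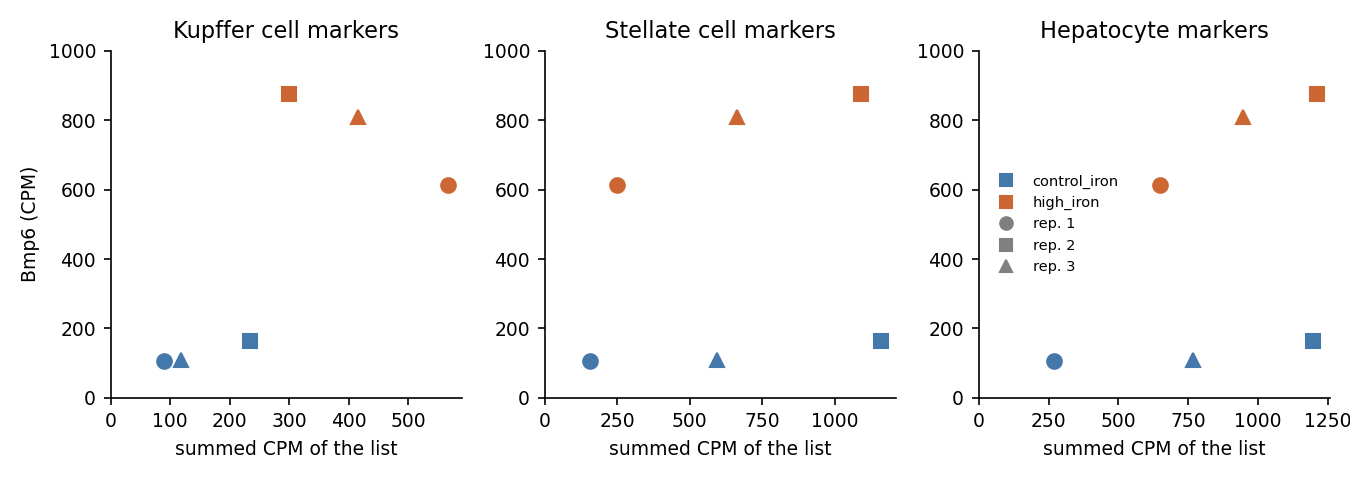
Bmp6 in CPM against the summed CPM of Kupffer cell (left), stellate cell (middle) and hepatocyte (right) marker genes, 1 point per library, with control_iron in blue, high_iron in orange and symbols for replicates. The control_iron and high_iron libraries closest in the stellate and hepatocyte sums were replicate 2 of each. Bmp6 was at 165 and 875 CPM in them. The Kupffer sums are all higher in the high_iron libraries. The part of these cells' RNA in Bmp6 was not tested.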

How the data were processed

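Sorted-cell RNA was purified on columns and amplified using, per the labels, a kit for low RNA input that is known not to mark strand. STAR, HTSeq, edgeR and mm10 are named in the submitters' processing notes; annotation: not given in the sources used here. Deposited were a normalized signal named CPM and a table of RPKM, both made by the authors; RPKM equals 1000 × CPM / gene length. All 114253 CPM values above 0 were whole multiples of 1 read within 0.001 read (100%), so reads were recovered; on them edgeR called 112 genes.

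The main test was limma 3.58.1 on log2(CPM + 1) with an intensity trend, diet as the only term and 4 residual degrees of freedom, over the 12980 genes with at least 1 CPM in at least 3 libraries, with Benjamini-Hochberg adjustment. Such folds understate the change of low genes. edgeR 4.0.16 and DESeq2 1.42.0 were run on recovered reads. Procedures were tested on simulated data. Positions come from GENCODE M21 and sequences from RefSeq (GRCm38.p6); RefSeq windows for Bmp2, Hmox1, Gclc, Gsr and Slc40a1 were not used here. Of 182 entries in 13 gene lists, 181 matched by symbol and 1 by identifier.

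Named genes followed a rule: the members, list genes that passed or the 2 most abundant where none did, ligands with a mean of at least 1 CPM, 10 preset genes, tested neighbours within 250 kb and the 4 genes nearest to each member. The members and lists were chosen with earlier results of these data known. Replicates differed beyond sampling noise (chi-square over degrees of freedom 17.3 to 83.1). Intervals and floors cover counting error only, save those from limma.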

Additional observations from a re-analysis of the deposited data

How the results depend on the processing

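Bmp6 passed the threshold in all 15 alternatives, with log2 fold changes from 2.48 to 2.79 and adjusted p of at most 0.0056, and Bmp2 passed in none, with log2 fold changes from 0.24 to 0.44 and adjusted p of 0.32 (DESeq2, unadjusted p = 0.032) to 0.84. Deviations of same-numbered libraries from their group means correlated at 0.13, 0.32 and 0.06. Control_iron replicate 3 and high_iron replicates 1 and 3 correlated best with another number. The stellate and hepatocyte sums and Gdf2 had the same replicate order on both diets. The labels name no shared batch, and whether same-numbered libraries shared one was not tested. With the replicate number as a block Bmp6 was at 2.59 (adjusted p = 1.8e-08) and Bmp2 at 0.35 (adjusted p = 0.51). The log2 ratio differed between diets by 2.11 to 2.52 with 1 library left out and by 2.26 without gene length or with GENCODE M21 lengths, an alternative chosen after seeing the data. The log2 sum differed by 0.64 to 0.80 with 1 library left out, by 0.60 on CPM and by 0.62 with GENCODE M21 lengths.

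The number of genes called moved from 133 to 34 with no filter, 424 with DESeq2 and 402 with the replicate block, and lay between 27 and 183 with 1 library left out: 183 without control_iron replicate 1, 88 and 53 without control_iron replicates 2 and 3, and 55, 43 and 27 without high_iron replicates 1, 2 and 3. The cause was not tested. List counts moved from 3 to 11 (DESeq2), 12 (replicate block) and 0 (no filter) for Kupffer genes, from 1 to 3, 4 and 0 for BMP-SMAD targets, from 1 to 2, 3 and 0 for lymphocyte genes, and from 0 to 2 and 4 (DESeq2 and block) for hepatocyte genes and to 2 and 1 for antagonists. With no filter, the calls among MHC class II genes went from 3 to 0 and those among proteases from 1 to 0. The other scalings moved the median log2 fold change of all genes by under 0.1.

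Signs turned for genes that were not called. With edgeR and DESeq2 these were Apoa2 (-0.12 and -0.11), Bach1 (-0.027 and -0.014) and Dcn (-0.24 and -0.23). With 1 library left out, the log2 fold change ran from -0.65 to 0.73 for Apoa2, -0.098 to 0.20 for Bach1, -1.07 to 0.36 for Bmp4, -0.80 to 0.86 for Dcn, -0.12 to 0.91 for Dsp, -0.19 to 0.15 for Eef1e1, -0.10 to 0.010 for Eng, -0.61 to 0.97 for Gdf2, -0.44 to 0.0061 for Gdf9 and -0.50 to 0.93 for Rgs5. Counting error was at most 2.28% of a Bmp6 value, so the number of libraries, 3 a group, limits the precision more than depth does.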
